A study of Mus musculus with 103 samples.

Results

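The genes described are 10 that defend cells against oxidants and electrophiles: Nfe2l2, which encodes the transcription factor NRF2, and Hmox1, Gclc, Gclm, Slc7a11, Gsr, Txnrd1, Srxn1, Prdx1 and Sod2. They were taken by symbol, as 10 of the 24014 gene symbols of the expression table, and where a symbol had several transcripts the one with the highest mean level stood for it. All 10 reached the level used to compare genes, an RPKM (reads divided by the length of the transcript and the size of the library) of at least 1 in 2 libraries, as did 10605 genes in all.

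The RNA came from thioglycollate-elicited peritoneal macrophages of male C57BL/6 mice aged 6 to 8 weeks, cells with no genetic change, which were serum-starved overnight before treatment. Polyadenylated RNA was sequenced in 6 libraries: an untreated library that served as control for 1 to 12 h, cells given 100 ng/ml of KLA (Kdo2-lipid A, a bacterial lipid A that activates TLR4) for 1, 6 or 12 h, and a 24 h pair made of another untreated library and a library of KLA-treated cells. Binding was given as 1 peak list for SREBP1 and 1 for LXR from the same kind of macrophages treated with 1 µM GW3965, an LXR agonist. Of the 103 samples in the labels these 8 were used, and each condition is 1 library, so differences are given with counting error only and without a p-value.

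In resting cells NRF2 is held by KEAP1, which brings it to a ubiquitin ligase for degradation. Oxidants and electrophiles modify KEAP1, NRF2 builds up, and together with small MAF proteins it binds antioxidant response elements, which BACH1 otherwise occupies as a repressor. NRF2 targets supply glutathione and thioredoxin reduction and break down heme, and in macrophages they are known to be engaged during the response to bacterial lipids, whereas Sod2 is known above all as a target of NF-κB.

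The 10 genes did not move as one block. Sod2, the mitochondrial superoxide dismutase, was higher than its control at every time, from 4.28-fold at 1 h to 21.4-fold at 24 h, and Slc7a11, the cystine importer, was 3.54 to 4.75 times its control from 6 h on. Hmox1 and Prdx1 were high at 12 and 24 h, Txnrd1, Srxn1 and Nfe2l2 had their highest level at 1 h, Gclc was below its control from 6 h on, and Gsr did not differ from its control beyond counting error at any of the 4 times. At 1 h, 2 of the 10 genes (Txnrd1 and Sod2) were at least 2-fold higher on the scale of log2(RPKM + 1), against 3.65% of all genes compared. Slc7a11 and Sod2 made 2 at 6 h, against 9.35%. Hmox1 joined them to make 3 at 12 h, against 8.88%, and with Prdx1 there were 4 in the 24 h pair, against 9.98%. None of the 10 was at least 2-fold lower at any of the 4 times, against 4.09%, 22.4%, 16.3% and 10.6% of all genes in order of time. With the other untreated library as control 2, 2, 4 and 2 of the 10 were at least 2-fold higher, against 4.01%, 9.04%, 9.74% and 10.3%, and 0, 1, 1 and 0 lower, against 4.95%, 23.8%, 20.3% and 11.7%. Hmox1 and Prdx1 are the genes that leave the count in the 24 h pair, Prdx1 the gene that enters it at 12 h, and Gclc the gene that is then lower.

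The median log2 ratio of the 10 genes, in order of time, was 0.25, 0.06, 0.52 and 0.53. Over all genes compared it was -0.16, -0.46, -0.32 and -0.09. Genes with an RPKM of at least 10 in both libraries had a median log2 ratio of -0.16, -0.37, -0.19 and -0.04, and ratios with this median subtracted are called scaled to the median gene. With this scaling the median of the 10 genes was 0.41, 0.43, 0.71 and 0.57. The scaled shares of all genes at least 2-fold higher and lower were 13% and 11.6% at 6 h and 10.7% and 11.1% at 12 h, and Prdx1 became the 4th gene past 2-fold at 12 h. The comparisons at 1, 6 and 12 h share 1 control library, so their values are set side by side and not counted as separate evidence.

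**Figure D1:**
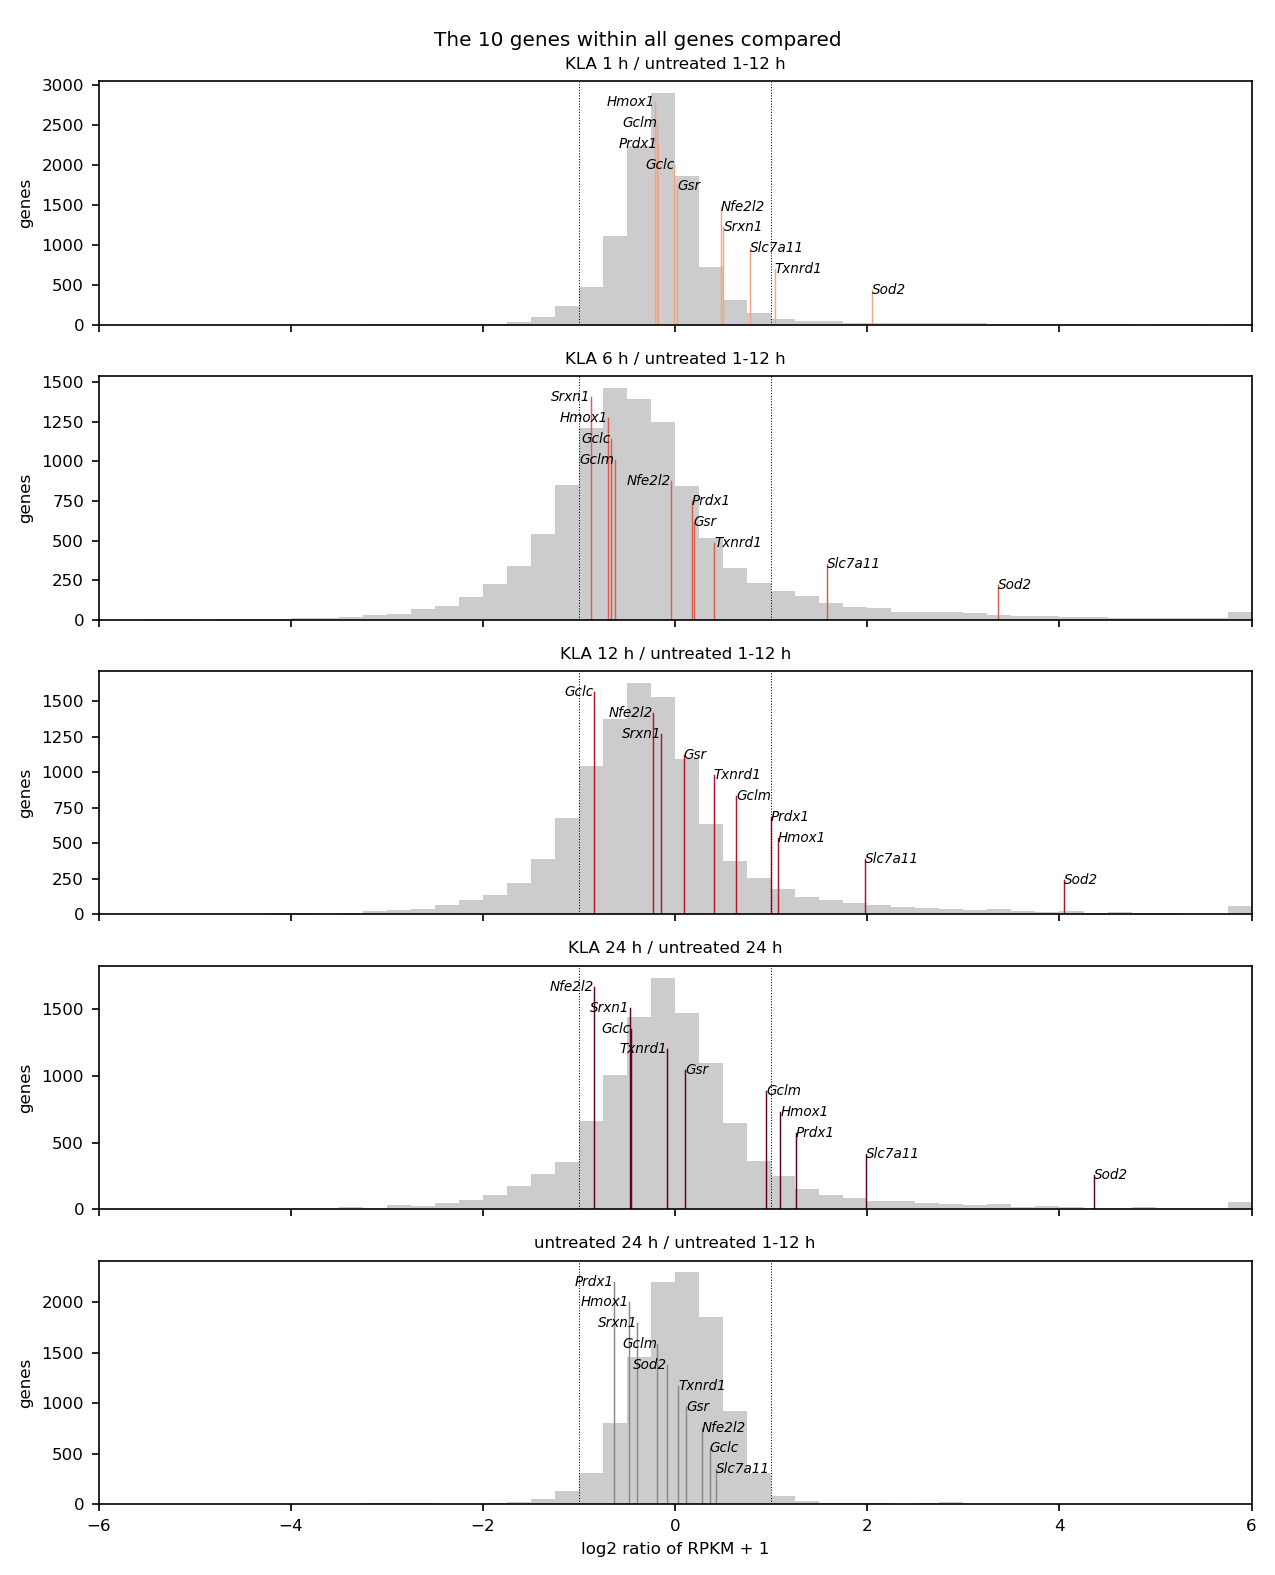
Histograms of the log2 ratio of RPKM + 1 over the 10605 genes compared (grey, number of genes per bin, ratios beyond 6 placed in the outermost bin), with the 10 oxidative stress genes as named vertical lines whose height has no meaning. Dotted lines mark 2-fold. Sod2 lies far to the right in all 4 KLA comparisons, Slc7a11 from 6 h on, and none of the 10 lies outside the dotted lines between the untreated libraries.

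The libraries held 2205187 to 2674826 reads, of which 1883936 to 2309723 lay in genes, and a single read on 1 kb of transcript stands for 0.374 to 0.453 RPKM. Of 7 listed NF-κB target genes, 6 were past 2-fold higher by 1 h and 7 at each later time, against 3.65%, 9.35%, 8.88% and 9.98% of all genes. The list was chosen with earlier results of these data known, so its counts are a description. All 7 macrophage markers were present in every library, with a summed RPKM of 6224 (KLA 24 h) to 11206 (untreated, 1 to 12 h). Most of this sum was Lyz2, at 8848 RPKM in the untreated 1 to 12 h library and 3936 with KLA at 24 h. In the 24 h pair 4 of the 7 were above and 3 below their control, Emr1 at 74.5 RPKM untreated and 357 with KLA and Lyz2 at 7040 and 3936. The summed markers of other cells were lower: 40.8 to 122 RPKM for neutrophils (6 of 7 in the table), 78.1 to 145 for fibroblasts and mesothelium (6 of 6), 4.45 to 6.82 for lymphocytes (6 of 6), 0.281 to 0.798 for mast cells and eosinophils (5 of 6) and 0.474 to 1.97 for dendritic cells (4 of 4). Most of the neutrophil sum was S100a8, at 45.5 RPKM in untreated cells and 118 with KLA in the 24 h pair. Of the defining neutrophil genes Mpo had no read in any library, and S100a9 and Elane had 1 read each, in the untreated 1 to 12 h library. Camp had 7 reads with KLA at 12 h and 7 at 24 h and none elsewhere, and Ltf had 7 reads in the untreated 1 to 12 h library, 10 with KLA at 1 h and at most 1 elsewhere. Of the 6 fibroblast and mesothelial markers 3 were above and 3 below their control at 24 h, Dcn at 59.5 RPKM untreated and 104 with KLA and Col3a1 at 15.5 and 10.2. Col1a1, at 13.9 and 29.2 RPKM, was the 1 past 2-fold higher, against 9.98% of all genes. Upk3b, with 15 reads and 0, was the 1 past 2-fold lower, against 10.6%. The sum of the 6 was 93.4 RPKM untreated and 145 with KLA at 24 h. The part of these cells in the levels described here was not tested, and in bulk RNA fewer cells of a type and less RNA per cell cannot be told apart.

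Promoter sequences are shown so that the letters NRF2 and its partners are known to bind can be seen beside the genes whose RNA is described. RefSeq promoters of build GRCm38.p6, 250 bases before to 50 after the start site, were matched by symbol for 7 of the 10 genes (9 promoters, 3 of them for Txnrd1). Hmox1, Gclc and Gsr were not matched. Of the Txnrd1 promoters, only the one with a marked sequence (chr10:82858956-82859255) is printed. Those at chr10:82833701-82834000 and chr10:82860091-82860390 held none of the 3 sequences marked below and are left out. Which Txnrd1 promoter belongs to the transcript measured was not tested. Capitals mark every match, on either strand, to 3 sequences: the antioxidant response element core TGACNNNGC, the NF-E2-type sequence TGANTCAGC, which overlaps it where the letters allow both, and TGATGCAAA, a C/EBP-ATF-type element.
Nfe2l2 promoter (chr2:75704614-75704913, minus strand): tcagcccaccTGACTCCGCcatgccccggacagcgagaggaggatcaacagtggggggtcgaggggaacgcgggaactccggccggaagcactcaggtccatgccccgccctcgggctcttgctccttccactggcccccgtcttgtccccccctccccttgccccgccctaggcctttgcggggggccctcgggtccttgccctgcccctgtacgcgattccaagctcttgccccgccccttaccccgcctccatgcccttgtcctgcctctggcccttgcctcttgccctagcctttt
Gclm promoter (chr3:122245307-122245606, plus strand): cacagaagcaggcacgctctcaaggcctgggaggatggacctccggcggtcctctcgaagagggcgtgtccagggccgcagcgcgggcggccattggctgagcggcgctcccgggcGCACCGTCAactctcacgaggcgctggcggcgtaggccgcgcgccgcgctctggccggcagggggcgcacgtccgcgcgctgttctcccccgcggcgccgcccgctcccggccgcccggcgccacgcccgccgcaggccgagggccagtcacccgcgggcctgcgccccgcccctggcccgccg
Slc7a11 promoter (chr3:50443564-50443863, minus strand): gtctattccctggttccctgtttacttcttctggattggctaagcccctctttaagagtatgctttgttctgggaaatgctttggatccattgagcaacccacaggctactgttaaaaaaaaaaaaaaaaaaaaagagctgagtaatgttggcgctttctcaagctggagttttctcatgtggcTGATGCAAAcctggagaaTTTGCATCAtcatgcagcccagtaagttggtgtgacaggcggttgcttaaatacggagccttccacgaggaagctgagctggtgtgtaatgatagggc
Txnrd1 promoter (chr10:82858956-82859255, plus strand): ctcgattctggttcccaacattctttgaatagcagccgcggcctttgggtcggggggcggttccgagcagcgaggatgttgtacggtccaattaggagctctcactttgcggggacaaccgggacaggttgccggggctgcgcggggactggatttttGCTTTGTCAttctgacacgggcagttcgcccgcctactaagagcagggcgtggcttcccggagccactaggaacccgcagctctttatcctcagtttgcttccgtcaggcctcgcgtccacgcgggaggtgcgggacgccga
Srxn1 promoter (chr2:152105274-152105573, plus strand): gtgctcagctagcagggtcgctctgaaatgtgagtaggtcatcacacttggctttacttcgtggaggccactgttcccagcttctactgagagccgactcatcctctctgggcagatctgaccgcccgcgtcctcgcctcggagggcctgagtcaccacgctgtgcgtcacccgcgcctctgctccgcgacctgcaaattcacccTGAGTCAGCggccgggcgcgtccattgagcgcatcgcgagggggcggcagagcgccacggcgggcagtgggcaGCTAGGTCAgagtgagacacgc
Prdx1 promoter (chr4:116685349-116685648, plus strand): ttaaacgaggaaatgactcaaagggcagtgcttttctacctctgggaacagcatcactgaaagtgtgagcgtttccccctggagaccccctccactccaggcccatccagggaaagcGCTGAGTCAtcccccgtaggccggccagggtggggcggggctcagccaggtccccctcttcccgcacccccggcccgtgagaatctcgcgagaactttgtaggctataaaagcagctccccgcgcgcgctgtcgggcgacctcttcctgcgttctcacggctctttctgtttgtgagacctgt
Sod2 promoter (chr17:13007589-13007888, plus strand): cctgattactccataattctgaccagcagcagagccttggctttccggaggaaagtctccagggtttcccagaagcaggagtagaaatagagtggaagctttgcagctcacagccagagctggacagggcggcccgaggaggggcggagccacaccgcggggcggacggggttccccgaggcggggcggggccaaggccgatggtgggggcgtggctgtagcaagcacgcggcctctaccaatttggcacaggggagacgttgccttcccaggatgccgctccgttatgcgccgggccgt

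The core TGACNNNGC was found in 5 of the 9 promoters, those of Nfe2l2, Gclm, Srxn1, Prdx1 and the second start site of Txnrd1, and in 12.4% of all 32851 RefSeq promoters of the same length. Its first base lay at -240 in Nfe2l2, -134 in Gclm, -92 in Txnrd1, -133 in Prdx1 and 28 in Srxn1, counting the start site as 0. TGANTCAGC occurred in Prdx1, where it is the same stretch as the core, and in Srxn1 at -45, and in 1.19% of all promoters. The shorter AP-1 sequence TGANTCA, which lies inside TGANTCAGC, was found in the same pair of promoters, at -102 and -45 in Srxn1 and at -237 and -131 in Prdx1, and in 7.81% of all. Slc7a11 alone of the 9 held TGATGCAAA, once on each strand at -66 and -48, and 0.271% of all promoters hold it. The Sod2 window had none of the 3 marked sequences. Also searched, on both strands and without a match in the 9 promoters, were the E-box CACGTG (7.15% of all promoters), the sterol element TCACNCCAC (1.24%), an NF-κB consensus (0.411%) and the DR4 repeat of LXR (0.0152%). TATAAA was found in Prdx1 at -29 and in 13.6% of all. These are matches of letters in a short window and were not set against binding.

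Nfe2l2 (mm9 chr2:75513576-75542698, minus strand) was measured at 159 RPKM in the untreated 1 to 12 h library, 222 after 1 h of KLA, 154 after 6 h, 135 after 12 h, 193 in the untreated 24 h library and 107 after 24 h of KLA. The highest value was that at 1 h and the lowest that at 24 h, and the untreated values lay between them. KLA at 1 h gave a ratio of 1.40 to its control (95% counting interval 1.28 to 1.52), and at 24 h a ratio of 0.555 (0.505 to 0.609). At 6 h the ratio was 0.969 (0.882 to 1.07), which after scaling to the median gene lay above 1 (log2 ratio -0.04 as deposited and 0.32 scaled). At 12 h it was 0.852 (0.773 to 0.939), with a scaled log2 ratio of -0.04. RNA of the factor says nothing of its protein, which KEAP1 sets by degradation.

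The genes whose levels across the 6 libraries were most like those of Nfe2l2, among 5940 genes with an RPKM of at least 10 in 1 library or more, were B4galt5 (Pearson r = 0.97 of log2(RPKM + 1)), Hnrnpf (0.96) and Srebf2 (0.95). These correlations are descriptions over 6 libraries of 1 experiment and carry no test.

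Hmox1, heme oxygenase, which splits heme into biliverdin, iron and carbon monoxide (mm9 chr8:77617517-77624492, plus strand), stood at 259 RPKM in the untreated 1 to 12 h library and at 224, 159 and 546 RPKM after 1, 6 and 12 h of KLA. In the 24 h pair it stood at 186 untreated and 399 with KLA. It was thus lowest at 6 h and highest at 12 h, and the KLA values at 12 and 24 h lay above both untreated ones. The ratio to control was 0.864 (0.786 to 0.950) at 1 h, 0.613 (0.551 to 0.680) at 6 h, 2.10 (1.94 to 2.28) at 12 h and 2.14 (1.97 to 2.34) at 24 h. From 6 to 12 h the level differed 3.43-fold (3.13 to 3.77), a log2 ratio at or above that of 99.3% of all genes compared between these libraries. Against the other untreated library the ratio was 2.93 at 12 h and 1.54 at 24 h, so the 24 h value passed 2-fold with its own control and not with the other. At 6 h the ratio to the other library was 0.855 (0.766 to 0.953), and scaled to the median gene it no longer lay below (log2 ratio 0.03). Most like Hmox1 over the 6 libraries were Setd8 (r = 0.99), Stx8 (0.98) and 3110002H16Rik (0.98), and among the 10 genes Gclm (0.95).

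**Figure D2:**
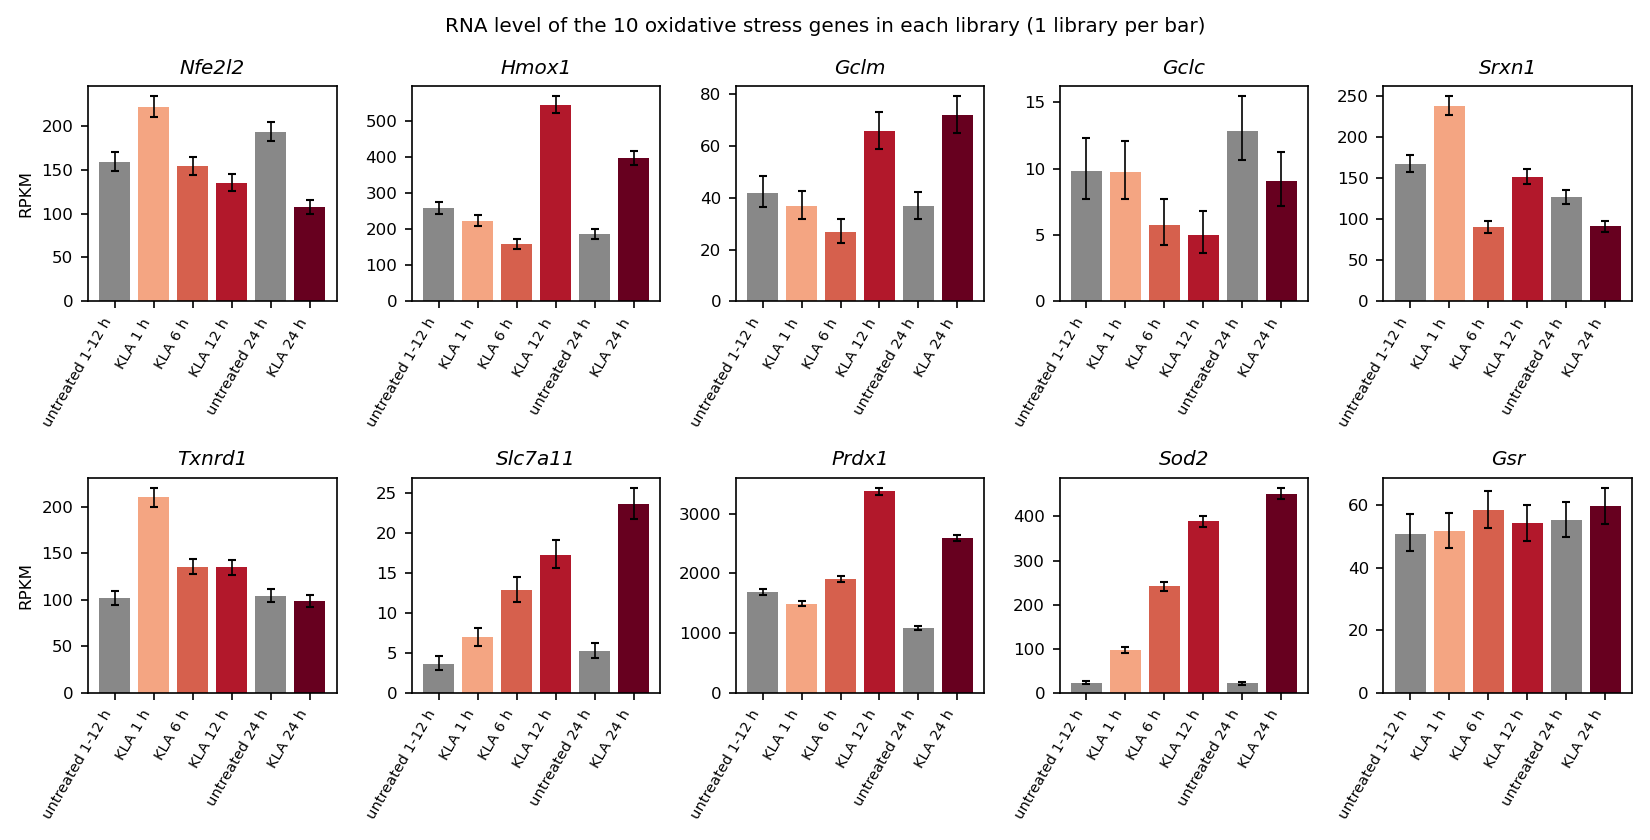
RPKM of each of the 10 genes (y axis from 0) in the 6 libraries (x axis), 1 bar per library, grey for untreated and red for KLA, with error bars for the 95% exact Poisson interval of the reads. Sod2 and Slc7a11 stand higher at each later KLA time, Hmox1 is lowest at 6 h (159) and highest at 12 h (546), Txnrd1 is highest at 1 h (210), and Gsr stays between 50.9 and 59.6.

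Among the genes of glutathione supply, the subunits of glutamate-cysteine ligase, which makes the first bond of glutathione, differed from each other. Gclm, the modifier subunit (mm9 chr3:121948475-121970133, plus strand), was measured at 42.0 RPKM untreated and 36.8, 26.9 and 65.9 RPKM at 1, 6 and 12 h. At 24 h it was at 36.8 untreated and 71.8 with KLA. The values at 12 and 24 h lay above all the others and did not differ from each other beyond counting error (ratio 1.09, 0.940 to 1.26). Its ratio to control was 0.876 (0.711 to 1.08) at 1 h, 0.639 (0.508 to 0.802) at 6 h, 1.57 (1.31 to 1.88) at 12 h and 1.95 (1.64 to 2.33) at 24 h. Like Hmox1 it was lowest at 6 h, but the 6 h value did not differ from the median gene beyond counting error once scaled (log2 ratio -0.26).

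Gclc, the catalytic subunit (mm9 chr9:77602342-77642296, plus strand), was weakly expressed, at 9.79 RPKM untreated, 9.73, 5.78 and 5.01 RPKM at 1, 6 and 12 h, and 12.9 untreated and 9.06 with KLA in the 24 h pair. The lowest values were those at 6 and 12 h, from 47 and 42 reads. Against its control Gclc was at 0.590 (0.401 to 0.862) at 6 h, 0.511 (0.342 to 0.757) at 12 h and 0.704 (0.524 to 0.943) at 24 h, while Gclm was above its control at 12 and 24 h. Set against the untreated 24 h library it passed 2-fold lower at 6 h (ratio 0.450) and 12 h (0.390), and the 24 h KLA value set against the earlier untreated library gave 0.925 (0.668 to 1.28). The ratio at 6 h no longer differed from the median gene beyond counting error after scaling (log2 ratio -0.30).

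Slc7a11 (mm9 chr3:50168858-50247535, minus strand) encodes xCT, which brings in cystine in exchange for glutamate and so feeds glutathione synthesis. It was measured at 3.64 RPKM untreated, 6.96, 12.9 and 17.3 RPKM at 1, 6 and 12 h, and 5.24 untreated against 23.7 with KLA at 24 h. Each later KLA library was higher than the one before beyond counting error, and both untreated libraries lay below all 4. The ratio to control was 1.91 (1.44 to 2.56) at 1 h, 3.54 (2.73 to 4.64) at 6 h, 4.75 (3.70 to 6.17) at 12 h and 4.52 (3.72 to 5.53) at 24 h. The untreated libraries themselves differed 1.44-fold (1.07 to 1.95), and against the earlier one the 24 h ratio was 6.51. At 1 h its log2(RPKM + 1) ratio was 0.78, under the 2-fold mark. The genes most like it were H2-M2 (r = 0.996), Ptges (0.99) and Lcn2 (0.99). Its correlation with Sod2 was 0.96 over the same 6 libraries.

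Gsr, glutathione reductase, which returns oxidised glutathione to its reduced form (mm9 chr8:34763710-34808634, plus strand), spanned 50.9 to 59.6 RPKM over the 6 libraries. Ratios to control were 1.01 (0.865 to 1.19), 1.15 (0.982 to 1.34), 1.06 (0.909 to 1.24) and 1.08 (0.937 to 1.24) at 1, 6, 12 and 24 h. No neighbours in the order of its levels differed beyond counting error, and the highest against the lowest, KLA at 24 h against the untreated 1 to 12 h library, gave 1.17 (1.01 to 1.36). Relative to the median gene it was higher beyond counting error at 6 h (scaled log2 ratio 0.56) and at 12 h (0.28).

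In the thioredoxin branch Txnrd1 and Srxn1 had their highest level at 1 h. Txnrd1, cytosolic thioredoxin reductase, a selenoprotein that passes electrons from NADPH to thioredoxin (mm9 chr10:82321951-82360469, plus strand), was measured at 102 RPKM untreated and 210, 136 and 135 RPKM after 1, 6 and 12 h. The 24 h pair gave 104 untreated and 98.4 with KLA. The 1 h library stood above all others, the values at 6 and 12 h did not differ from each other beyond counting error, and the 24 h value did not differ from either untreated one. The ratio was 2.06 (1.89 to 2.25) at 1 h, 1.33 (1.21 to 1.46) at 6 h, 1.32 (1.20 to 1.45) at 12 h and 0.945 (0.859 to 1.04) at 24 h. The table lists 4 transcripts of Txnrd1, and the second most abundant gave log2 ratios of 1.05, 0.42, 0.41 and -0.08 in order of time. The gene Eid3 lies within it on the same strand, with 0 to 2.88 RPKM.

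Srxn1, sulfiredoxin, which repairs overoxidised peroxiredoxins (mm9 chr2:151931260-151937112, plus strand), was measured at 167 RPKM untreated and 237, 90.4 and 151 RPKM at 1, 6 and 12 h. In the 24 h pair it was at 127 untreated and 91.1 with KLA. The order from 1 to 12 h was high, low and then near the control, and the 6 h and 24 h values did not differ beyond counting error. The ratio was 1.42 (1.31 to 1.54) at 1 h, 0.540 (0.488 to 0.598) at 6 h, 0.905 (0.830 to 0.988) at 12 h and 0.719 (0.650 to 0.794) at 24 h. Between 1 and 6 h the level was 2.63-fold lower (2.39 to 2.89). The 12 h value crossed to the other side of the median gene after scaling (log2 ratio -0.14 as deposited and 0.05 scaled).

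Prdx1, the abundant peroxiredoxin that reduces peroxides with electrons from thioredoxin (mm9 chr4:116358204-116372605, plus strand), was the 19th most abundant RNA of the table by mean RPKM. It was measured at 1690 RPKM untreated, 1488, 1902 and 3371 RPKM at 1, 6 and 12 h, and 1085 untreated against 2596 with KLA at 24 h. The 12 h library was the highest and the untreated 24 h library the lowest. The ratio was 0.880 (0.847 to 0.915) at 1 h, 1.13 (1.08 to 1.17) at 6 h, 1.99 (1.93 to 2.06) at 12 h and 2.39 (2.31 to 2.48) at 24 h. The untreated libraries differed here by a ratio of 0.642 (0.616 to 0.669), and with the other one as control the ratio was 3.11 at 12 h and 1.54 at 24 h. A pseudogene of this gene, Prdx1-ps, is named in the RefSeq table, and reads of close copies may not be told apart. The antisense gene AV051173 overlaps Prdx1 over 424 bases, with 0 to 3.28 RPKM.

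Sod2, which turns superoxide into peroxide in mitochondria (mm9 chr17:13200705-13210985, plus strand), was at 22.5 RPKM untreated, 96.3, 241 and 389 RPKM at 1, 6 and 12 h, and 21.1 untreated against 452 with KLA at 24 h. All 4 KLA values lay above both untreated values, which did not differ beyond counting error (ratio 0.937, 0.767 to 1.15). The ratio was 4.28 (3.65 to 5.03) at 1 h, 10.7 (9.23 to 12.5) at 6 h, 17.2 (14.9 to 20.1) at 12 h and 21.4 (18.6 to 24.7) at 24 h. Its log2 ratio was at or above that of 98.2% of all genes after 1 h of KLA and of 98.9% in the 24 h pair. Clec4e (r = 0.997), Ch25h (0.99) and Il4ra (0.99) were most like it.

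**Figure D3:**
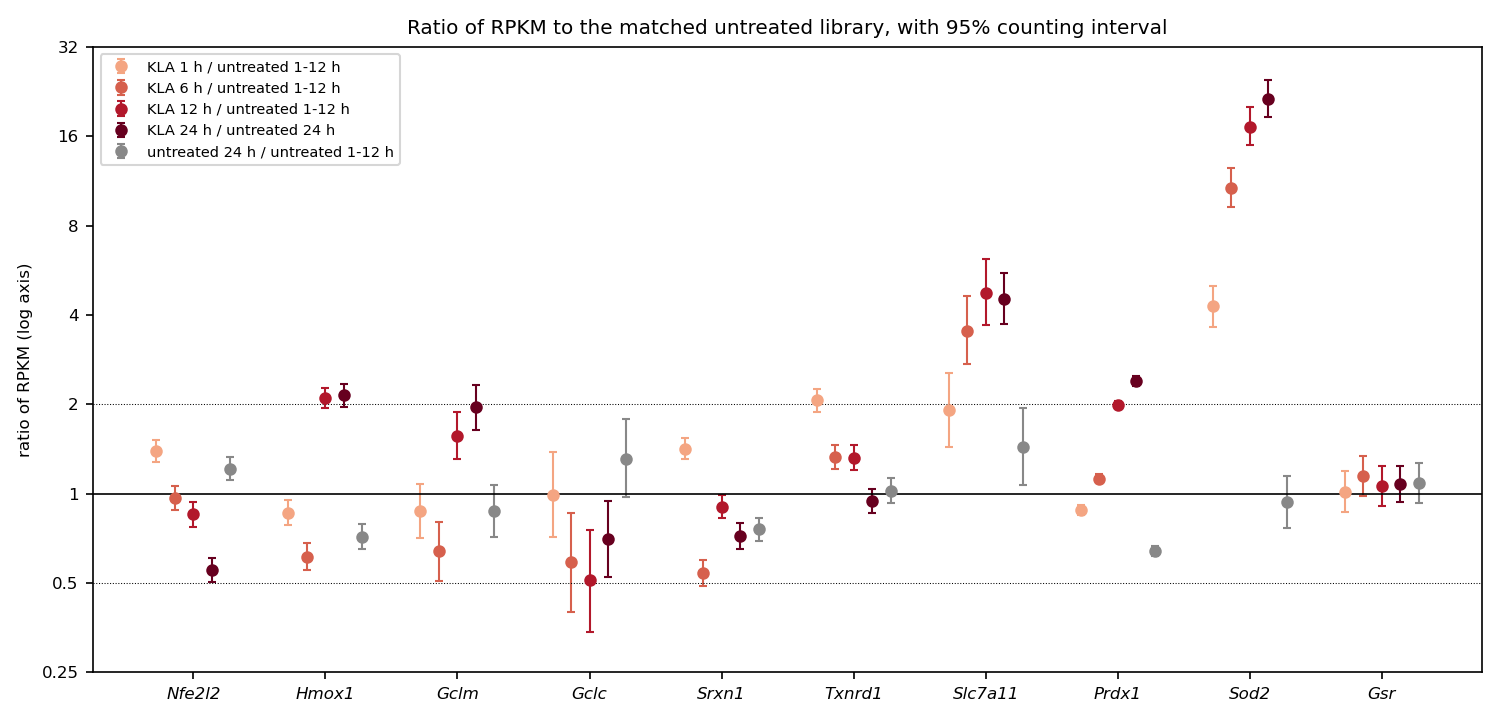
Ratio of RPKM (log axis) for the 10 genes (x axis): KLA at 1, 6, 12 and 24 h over the untreated library of its time (reds) and the untreated 24 h over the untreated 1 to 12 h library (grey), each point 1 pair of libraries, with 95% exact conditional binomial intervals that cover counting error. Dotted lines mark 2-fold. Sod2 spans 4.28 to 21.4, Hmox1 and Gclm lie below 1 at 6 h and above it at 12 and 24 h, and Gclc lies below 1 from 6 h on.

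Between the untreated libraries none of the 10 genes was at least 2-fold higher or lower, against 1.72% and 2.42% of all genes. Their median log2 ratio was -0.03, and that of all genes 0.02. Beyond counting error, Prdx1, Hmox1 (ratio 0.717, 0.650 to 0.791) and Srxn1 (0.758, 0.693 to 0.829) were lower and Nfe2l2 (1.22, 1.11 to 1.33) and Slc7a11 were higher in the 24 h library. Some of the smaller KLA ratios depend on which of these libraries is the control. With the untreated 24 h library in its place, Hmox1 at 1 h was at 1.20 (1.09 to 1.33), Prdx1 at 1 h at 1.37 (1.32 to 1.43) and Srxn1 at 12 h at 1.19 (1.09 to 1.31), each above 1 where the value with its own control was below.

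Beyond the 10 genes, 55 others of the antioxidant pathways in 6 lists were followed, of which 54 were expressed highly enough to compare. In order of time 2, 5, 6 and 11 of the 54 were at least 2-fold higher and 1, 20, 14 and 8 lower, against the shares of all genes given above. Scaled to the median gene, 10 in place of 20 were lower at 6 h, against 11.6% of all genes, and the scaled counts over the 4 times were 2, 5, 8 and 12 higher and 1, 10, 11 and 7 lower. The median log2 ratio of the 54 was -0.23, -0.67, -0.12 and 0.21. With the other untreated library as control 3, 6, 13 and 7 were higher, against 4.01%, 9.04%, 9.74% and 10.3% of all genes. With that control 3, 10, 10 and 12 were lower, against 4.95%, 23.8%, 20.3% and 11.7%, and the median was 0.17, -0.20, 0.19 and -0.21. Which direction held more of the 54 genes at 12 and 24 h thus depended on the control library. Between the untreated libraries 0 of the 54 were at least 2-fold higher and 4 lower, against 1.72% and 2.42% of all genes.

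The next list held 9 genes of NRF2 partners, regulators and related factors. In order of time 2, 3, 2 and 3 of them were at least 2-fold higher, against 3.65%, 9.35%, 8.88% and 9.98% of all genes. Bach1 was the gene at least 2-fold lower at 6, 12 and 24 h, against 22.4%, 16.3% and 10.6% of all genes. With the other untreated library 2, 3, 4 and 2 were higher, against 4.01%, 9.04%, 9.74% and 10.3%, and Bach1 was at least 2-fold lower at 1 h too. Maff, a small MAF partner, was at 4.03 RPKM untreated and 91.3 at 1 h, a ratio of 22.6 (13.8 to 40.0), and at 17.3, 21.1 and 28.5 RPKM at 6, 12 and 24 h. Bach1, the repressor of the same elements, was at 19.0 RPKM untreated and 12.8, 7.70 and 4.60 at 1, 6 and 12 h, 4.14-fold lower (3.14 to 5.51) at 12 h, and at 27.4 and 7.21 in the 24 h pair. Mafk, another small MAF, was 2.80-fold higher (2.18 to 3.63) at 6 h. Sqstm1, the autophagy receptor p62 that binds KEAP1, was 2.57-fold higher (2.41 to 2.74) at 1 h, at 297 and 764 RPKM, and 2.68-fold higher (2.48 to 2.90) at 24 h, where the ratio to the other untreated library was 1.65 (1.54 to 1.76), under 2-fold. Keap1 itself, named after its values were seen, was at 19.4 RPKM untreated and 12.4, 47.1 and 44.6 at 1, 6 and 12 h, with ratios of 2.42 (1.98 to 2.98) and 2.30 (1.88 to 2.82) at the later pair of times.

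Of 14 other genes of glutathione use, 13 could be compared. At 6 h 1 was at least 2-fold higher and 5 lower, at 12 h 2 and 4, and at 24 h 4 and 1. The shares of all genes were 9.35% higher and 22.4% lower at 6 h, 8.88% and 16.3% at 12 h, and 9.98% and 10.6% at 24 h. Against the other untreated library none of the 13 was at least 2-fold lower at 6 h, where 23.8% of all genes were. At 12 h 5 were then higher and 2 lower, against 9.74% and 20.3%, and 2 were higher in the 24 h comparison, against 10.3%. Glrx, a glutaredoxin, was at 17.8 RPKM untreated and 60.7 at 12 h, and at 21.6 and 111 in the 24 h pair, 5.15-fold higher (4.01 to 6.70). Ggct, γ-glutamylcyclotransferase, an enzyme of glutathione turnover, was 9.67-fold higher (3.88 to 31.1) at 24 h, from 5 and 50 reads. Gpx1, the cytosolic glutathione peroxidase, ran the other way: 1408 RPKM untreated and 1407, 642 and 386 at 1, 6 and 12 h, and 960 and 258 in the 24 h pair, 3.72-fold lower (3.43 to 4.05). Mgst2 also passed 2-fold, but on 0 to 4 reads per library, and its counting interval at 12 h included no difference.

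Of 10 thioredoxin and peroxiredoxin genes, 1, 1 and 2 were at least 2-fold higher at 6, 12 and 24 h, against 9.35%, 8.88% and 9.98% of all genes. At 1, 6, 12 and 24 h 1, 3, 1 and 1 were lower, against 4.09%, 22.4%, 16.3% and 10.6%. With the other untreated library none was lower at 6 h, against 23.8%, and 2 were lower at 24 h, against 11.7%. Prdx5, a peroxiredoxin of mitochondria and peroxisomes, was at 213 RPKM untreated, 291, 725 and 1655 at 1, 6 and 12 h, and 128 and 1460 in the 24 h pair, an 11.4-fold ratio (9.94 to 13.1), or 6.87-fold (6.11 to 7.73) to the other untreated library. Prdx6 was 2.66-fold higher (2.21 to 3.22) at 24 h. Txnip, which binds and inhibits thioredoxin, was 2.50-fold lower (2.17 to 2.87) at 1 h and 2.87-fold lower (2.54 to 3.24) at 24 h, at 109 and 43.6 RPKM and at 137 and 47.9. Txnrd2, the mitochondrial counterpart of Txnrd1, was 3.34-fold lower (1.59 to 7.63) at 6 h, from 31 and 10 reads, and 2.29-fold lower (1.06 to 5.35) than the other untreated library, under 2-fold on the log2(RPKM + 1) scale.

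None of the 12 genes of quinone and carbonyl detoxification and NADPH supply was at least 2-fold higher at any of the 4 times, against 3.65%, 9.35%, 8.88% and 9.98% of all genes. At 6, 12 and 24 h 6, 5 and 3 were lower, against 22.4%, 16.3% and 10.6%. With the other untreated library as control 5, 3 and 5 were lower, against 23.8%, 20.3% and 11.7%, and 1 was higher at 12 h, against 9.74%. Idh1, the cytosolic isocitrate dehydrogenase that makes NADPH, was at 156 RPKM untreated and 13.6 at 6 h, 11.5-fold lower (9.04 to 14.8), and 5.88-fold lower (5.04 to 6.89) at 24 h. Cbr3, a carbonyl reductase, was 8.07-fold lower (2.84 to 31.5) at 6 h, from 30 and 4 reads, or 4.36-fold (1.45 to 17.6) with the untreated 24 h library as control. Akr1b8, an aldo-keto reductase, was 3.87-fold lower (2.46 to 6.30) at 6 h. Ephx1, an epoxide hydrolase, was 9.89-fold lower (4.55 to 25.6) at 24 h, from 67 and 7 reads. Nqo1, a quinone reductase often read as a sign of NRF2 activity, was weakly expressed, at 4.97 RPKM untreated, 4.30, 4.89 and 5.80 at 1, 6 and 12 h, and 1.99 and 3.62 in the 24 h pair, from 8 to 22 reads. No KLA ratio of Nqo1 to the control of its own time differed from 1 beyond counting error, while against the other untreated library it was at 2.45 (1.02 to 6.52) at 6 h and 2.91 (1.25 to 7.55) at 12 h. The gene is named after its values were seen.

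In the heme and iron list 4, 2 and 2 of 7 genes were at least 2-fold lower at 6, 12 and 24 h, and 1 was higher at 24 h. The shares of all genes were 22.4%, 16.3% and 10.6% lower, and 9.98% higher at 24 h. With the other untreated library 3, 2 and 3 were lower, against 23.8%, 20.3% and 11.7% of all genes. With that control 1 was higher at 12 h, against 9.74%, and none at 24 h, against 10.3%. Blvra, a biliverdin reductase, was at 135 RPKM untreated and 28.1 at 6 h, 4.79-fold lower (3.73 to 6.20). Blvrb, the other biliverdin reductase, was at 347 RPKM in the untreated 1 to 12 h library, and at 157 untreated and 323 with KLA in the 24 h pair. Its 24 h ratio was 2.06 (1.82 to 2.35) to its own control and 0.930 (0.837 to 1.03) to the other. Slc48a1, a heme transporter, was 3.24-fold lower (2.83 to 3.72) at 6 h and did not differ from its control beyond counting error at 24 h (ratio 0.982, 0.890 to 1.08, and 0.789, 0.717 to 0.869, to the other untreated library). Slc40a1, the iron exporter ferroportin, had 19 reads untreated and none at 6 and 12 h, at least 6.81-fold and 7.03-fold lower against a floor of 3 reads. Of the other superoxide dismutases and catalase, Cat was 4.85-fold lower (3.92 to 6.05) at 6 h, and Sod3, the extracellular enzyme, was at 4.20 RPKM at 12 h and 8.78 at 24 h with KLA against 0.887 and 0.189 untreated, the last from 1 read.

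**Figure D4:**
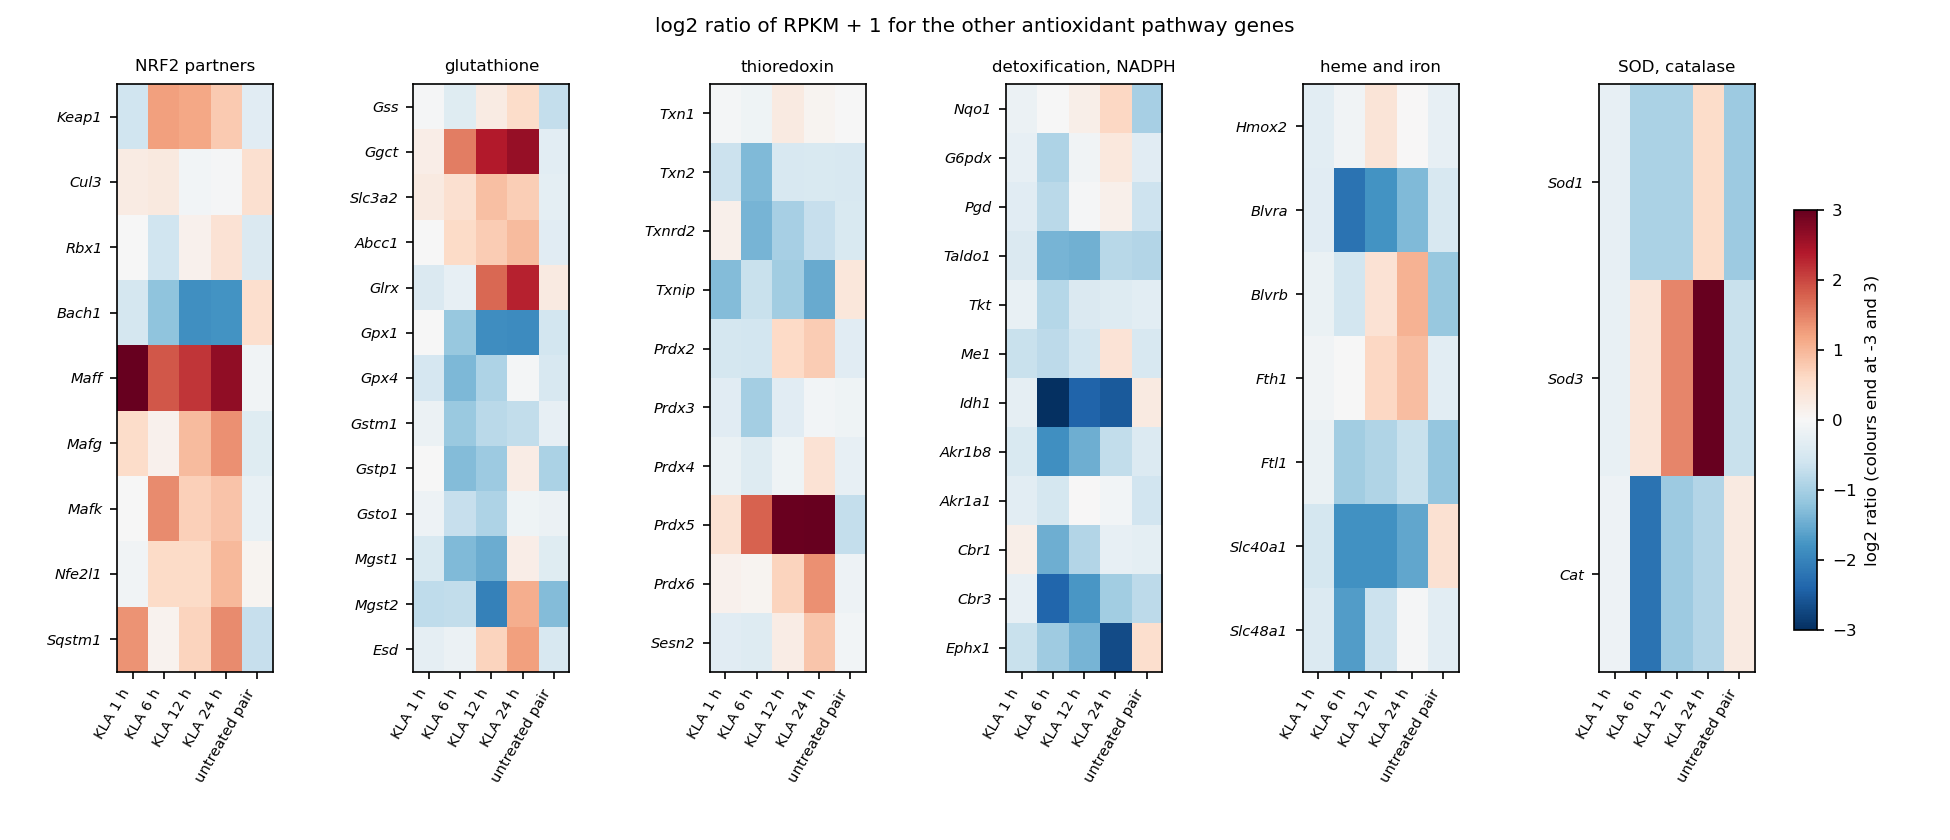
Colour maps of the log2 ratio of RPKM + 1 (red higher, blue lower, colours ending at -3 and 3) for the 54 other antioxidant pathway genes (rows, by list), with 1 column for each KLA time against its untreated library and 1 for the untreated 24 h over the untreated 1 to 12 h library. Maff is dark red at 1 h and Prdx5 at 12 and 24 h, Idh1 is the darkest blue at 6 h, and no gene of the detoxification and NADPH list passes 2-fold higher in the KLA columns drawn.

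The peak lists, from cells given the LXR agonist and not KLA, place SREBP1, the activator of lipid synthesis genes, and LXR, the oxysterol receptor, near the start sites of the 10 genes. The LXR sample is titled GW3965 while its treatment label reads control, so its treatment rests on the title and the file header. All 10 had an LXR peak within 10 kb (31 peaks), against 75.5% of all genes compared, and 8 had a SREBP1 peak (16 peaks), against 59.2%. Among peaks at least 8-fold over the input and the surrounding bases, 3 genes (Gclc, Sod2 and Gsr) had a SREBP1 peak, against 16.8% of all genes, and 9 an LXR peak, against 67.1%. Without that filter the shares among the 4672 genes with a mean RPKM of at least 10 were 83.8% and 65.0%, and 9 of the 10 genes here are as highly expressed as that. Within 1 kb the counts were 8 of 10 for LXR and 7 of 10 for SREBP1, against 52.2% and 41.2% of all genes. Among the genes with a mean RPKM of at least 10 these shares were 59.2% and 43.8%. At least 3 LXR peaks within 10 kb were found for 6 of the 10 genes and for 22.3% of all. Both factors were found within 10 kb of 8 of the 10, and of 49% of all genes. The shares of 22.3% and 49% are over all genes compared and not over the more highly expressed ones. The LXR list is the longer one, with 40660 peaks against 13984.

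The highest LXR peaks of the 10 genes lay on the start sites of Srxn1 and Sod2. At Srxn1 the peak (mm9 chr2:151931221-151931405) was centred 53 bases after the start and had 489.3 normalised tags, the 146th highest of 40660. At Sod2 (mm9 chr17:13200642-13200826) it was centred 29 bases after the start, with 439.9 tags, the 185th highest. The median peak of the list had 28 tags. After 1 h of KLA the RNA of both was above its control, at 1.42 times for Srxn1 and 4.28 times for Sod2. At 24 h they differed, Srxn1 at 0.719 and Sod2 at 21.4 times its control. The peaks came from cells given GW3965 and not KLA, so they were not set against these RNA values. Neither of these LXR peaks overlapped a SREBP1 peak, and Srxn1 had none within 10 kb. Each was the LXR peak of its gene in that window, with no other.

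Txnrd1 had its highest LXR peak at -536 (mm9 chr10:82321323-82321507), with 110.6 tags, and SREBP1 peaks of 8.2 and 11.1 tags at -827 and -336. These distances are from the start of the Txnrd1 transcript measured (mm9 chr10:82321951). The gene has other start sites, with 25255 and 1135 bases between neighbours, from which the distances would differ. Hmox1 had 5 LXR peaks, at -9644 (85.3 tags), -7334 (62.7), -3918 (96.0), -20 (29.3) and 1238 (22.7), and 3 SREBP1 peaks, at -4010 (13.5), -20 (20.9) and 1106 (10.2). Every SREBP1 peak of Hmox1 overlapped an LXR peak. The SREBP1 peaks at the start of Hmox1 and at 249 bases into Prdx1 had 20.9 tags each, which placed both 565th of 13984, in a list with a median of 11.1 tags.

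Slc7a11 had an LXR peak at 33 bases from its start (33.3 tags), overlapped by a SREBP1 peak (9.43 tags), and LXR peaks of 72.0 and 62.7 tags inside the gene, at 4577 and 5339 bases from the start. Nfe2l2 had 5 LXR peaks of 18.7 to 36.0 tags and 3 SREBP1 peaks of 13.9 to 15.6. Gsr had 5 LXR peaks, the highest of 77.3 tags at -6252, and 1 SREBP1 peak. The LXR peaks of the glutamate-cysteine ligase subunits were all below the median of the list: Gclm had 1 LXR peak of 20.0 tags at 5622 and no SREBP1 peak, and Gclc had 2 LXR peaks of 16.0 and 17.3 tags more than 6 kb upstream and 2 SREBP1 peaks of 14.3 and 14.8. Prdx1 had 4 LXR peaks of 18.7 to 56.0 tags. With 1 list per factor no peak has a replicate, and what these peaks do for the RNA was not tested.

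**Figure D5:**
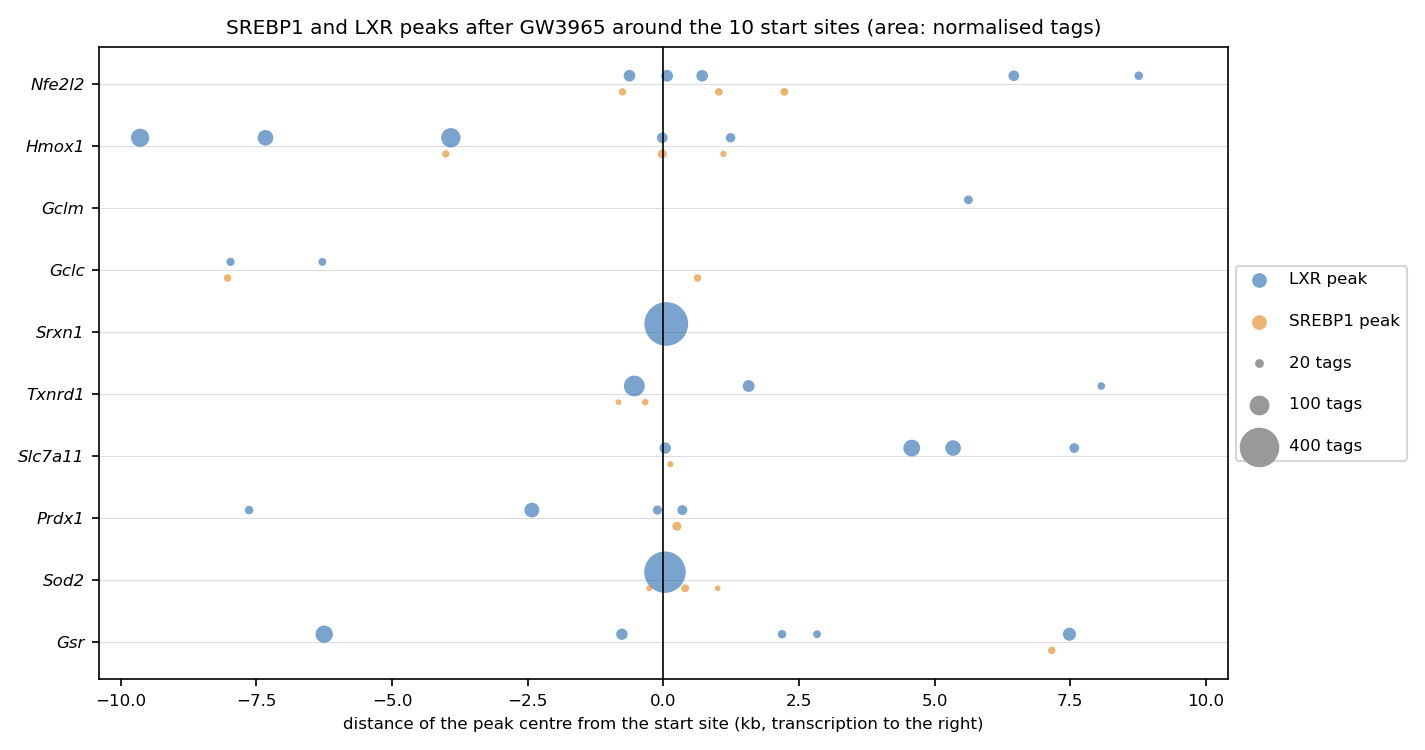
SREBP1 (orange) and LXR (blue) peaks within 10 kb of the start sites of the 10 genes (rows) after GW3965, placed by the distance of the peak centre from the start site (x axis, kb, transcription to the right), with the area of a circle showing the normalised tag count. The largest circles are the LXR peaks on the start sites of Srxn1 (489.3 tags) and Sod2 (439.9), and the Hmox1 row has 3 SREBP1 peaks each on an LXR peak.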

How the data were processed

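The authors deposited 1 table of RPKM values for 33022 transcripts on mouse build mm9, used here for 6 libraries. Per the submitters' processing notes the tools were Bowtie 0.12.7, STAR and HOMER and the build mm9, with no role stated for each. The sources used here do not give the strand setting of the counting. The peak lists are HOMER output, per the file headers: a peak's normalised tags are a signal that the authors scaled to 10000000 tags per library, the fold over input and over the surrounding bases is the authors' ratio, with a minimum of 4, and the peak score and p-value are the authors' own, per the file headers, and were not used. The LXR sample is titled GW3965 while its treatment label reads control, and its header points to 5 h of GW3965 with an input named for KLA 24 h. The SREBP1 label gives 18 h, and its tags are named as combined. Samples were used under their titles.

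Whole reads were recovered from RPKM (value × length × library total): 99.97% of non-zero values were whole within 0.01 read. Each ratio has a 95% exact interval (conditional binomial, Clopper-Pearson) from these reads, which covers counting error only. Simulated reads were drawn with counting error alone, the model the interval assumes. They checked the computation and not the spread between libraries. Genes with an RPKM of at least 1 in 2 libraries were compared as log2 ratios with a pseudocount of 1 RPKM, which understates changes of weak genes, and called at 2-fold. Single genes are plain RPKM ratios. KLA at 1, 6 and 12 h was set against 1 untreated library and KLA at 24 h against the other. Named besides the 10 genes are up to 4 genes per pathway list with the largest ratio among those past 2-fold, and the 3 genes most correlated with Nfe2l2, Hmox1, Slc7a11 and Sod2. The genes and lists were chosen with earlier results of these data known. Peaks count as near when their centre lies within 10 kb of the mm9 start site. No promoter sequence was read by mm9 coordinates. Python 3.11.15, pandas 2.3.3 and scipy 1.17.1 were used. The other samples of the series were not used here.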

Additional observations from a re-analysis of the deposited data

Results flagged for a closer look

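For 3 of the 10 genes the KLA ratio lay above 1 at one time and below 1 at another, beyond counting error both as deposited and after scaling to the median gene. For Nfe2l2 the ratio at 24 h was 0.398 times that at 1 h. For Hmox1 the ratio at 24 h was 3.5 times that at 6 h, and for Srxn1 the ratio at 6 h was 0.381 times that at 1 h. With 1 library per time these differences were not tested, and the pairs that involve 24 h also differ in the control library.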

How the results depend on the processing

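No test was run and no library could be left out, because each condition has 1 library. No paired analysis was possible because the libraries carry no shared replicate numbers. Of 48 recomputed counts of the 10 genes at least 2-fold higher or lower, 45 stayed within 1.5 times the reported count under pseudocounts of 0.1 and 3 RPKM, scaling to the median gene, another Txnrd1 transcript and the other untreated library. Many of these counts started from 0, and the transcript change touched Txnrd1 alone, so they had little room to move. All 3 exceptions came with the other untreated library, where 5 of 8 counts stayed. They were 1 gene (Gclc) lower at 6 h and 1 at 12 h, in place of 0, and 2 higher at 24 h, in place of 4. Of 195 recomputed log2 ratios 155 stayed within their counting interval, and no gene past 2-fold changed sign. The pseudocounts of 0.1 and 3 RPKM moved 0 and 3 of 50. Scaling to the median gene moved 18 of 50, and the other untreated library moved 19 of 40. Without a filter on low values the shares of all genes at least 2-fold higher were 1.78%, 4.31%, 4.05% and 4.75% at 1, 6, 12 and 24 h, and those lower 1.99%, 10.2%, 7.47% and 4.91%. Between the untreated libraries they were 0.974% and 1.22%. With peaks at least 8-fold over the input and the surrounding bases, 3 genes (Gclc, Sod2 and Gsr) kept a SREBP1 peak, in place of 8, and 9 an LXR peak, against 16.8% and 67.1% of all genes with such peaks. Depth limits Gclc, Ggct, Mgst2, Txnrd2, Cbr3, Ephx1, Nqo1, Slc40a1 and Sod3, whose ratios rest on few reads. It also limits Maff, with 16 reads in the untreated 1 to 12 h library.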
